A study of Mus musculus with 12 samples.

Results

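The 10 genes described here regulate how much mitochondrion a muscle cell makes and how it burns fat: the coactivators Ppargc1a and Ppargc1b, the PPAR receptors Ppara, Ppard and Pparg, the orphan receptor Esrra, the transcription factor Nrf1, and Tfam, Tfb2m and Polg, which transcribe or copy mitochondrial DNA. They were taken by gene symbol from the deposited count table, and all 10 were found among its 56941 genes. The data are RNA sequencing of mouse C2C12 myoblasts, an established line whose cells can fuse to form myotubes. ChR2 wells held the ChR2::tdTomato line, which carries a light-gated cation channel joined to a red fluorescent protein, and wild-type wells the Wild-Type line. Both lines grew on fibrin gel and then spent 6 days in a medium that makes them differentiate (horse serum, with IGF-1 and aminocaproic acid added). Each line gave 6 wells, 1 library a well. The labels mention no light stimulation, call the cells myoblasts of muscle and do not say whether the wells of a line were separate cultures or whether the transgenic line is 1 clone. P-values therefore measure only the spread between wells, and the transgene cannot be told apart from the history of the line.

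The pathway runs in steps. PGC-1 coactivators, encoded by Ppargc1a and Ppargc1b, bind no DNA of their own and act by docking on factors such as the PPARs, ERRalpha (Esrra) and nuclear respiratory factor 1 (Nrf1). These factors switch on nuclear genes for respiration and fatty acid oxidation, and also the genes for the proteins that enter the mitochondrion to transcribe and replicate its genome. In muscle, Ppargc1a is known for its induction by contraction and calcium signals, whereas Pparg is known above all from fat cells.

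Total estimated counts per library ran from 7388761 to 12229458 in ChR2 wells and from 1061068 to 13628569 in wild-type wells. Wild-type wells 2 and 5 were the 2 shallowest and stood apart. The 7SL RNA, which has no poly(A) tail, took 24.8% and 8.37% of their counts and 72.0% and 50.8% of their TPM (the deposited level per transcript length), against at most 0.0341% of counts and 0.328% of TPM elsewhere. Levels below are therefore CPM (counts relative to TMM-scaled library size), and each difference is given over 12 libraries and over the 10 without these wells. A count of 3 was taken as the floor of detection, which is 3.93 CPM in wild-type well 2, 1.07 CPM in well 5 and between 0.220 and 0.412 CPM in the others.

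Of the 9 regulators with enough counts to be tested, 3 changed between the lines. Ppargc1b and Tfb2m were lower in ChR2 wells and Pparg was higher, and the same 3 passed without wild-type wells 2 and 5. That is 33.3% of those tested, beside 28.1% of all 13168 genes over 12 libraries and 35.2% of 13484 genes over 10 (edgeR's quasi-likelihood test with Benjamini-Hochberg adjustment, threshold 0.05), a share close to that of genes at large. The median log2 fold change, ChR2 over wild-type, was -0.19 over the 9 genes and -0.02 over all genes tested. Without the pair of wells these medians were -0.13 and 0.00. Levels of Ppargc1b, Pparg and Tfb2m, 3 of the 9, also did not overlap between the lines in those 10 libraries, beside 25% of all genes (13.7% with ChR2 higher and 11.2% with ChR2 lower). On log2(TPM + 1) values limma called 0 of the 9 over 12 libraries, where the 7SL RNA filled much of the scale in that pair and 521 of 12989 genes were called, 498 higher and 23 lower. Without the pair limma on this scale called 3226 of 12989 genes, 1476 higher and 1750 lower, around a median of -0.08. Of the regulators it called Ppargc1b, Tfb2m and Esrra lower, while Pparg, at 0.51, was not called (adjusted p = 0.0519).

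**Figure D1:**
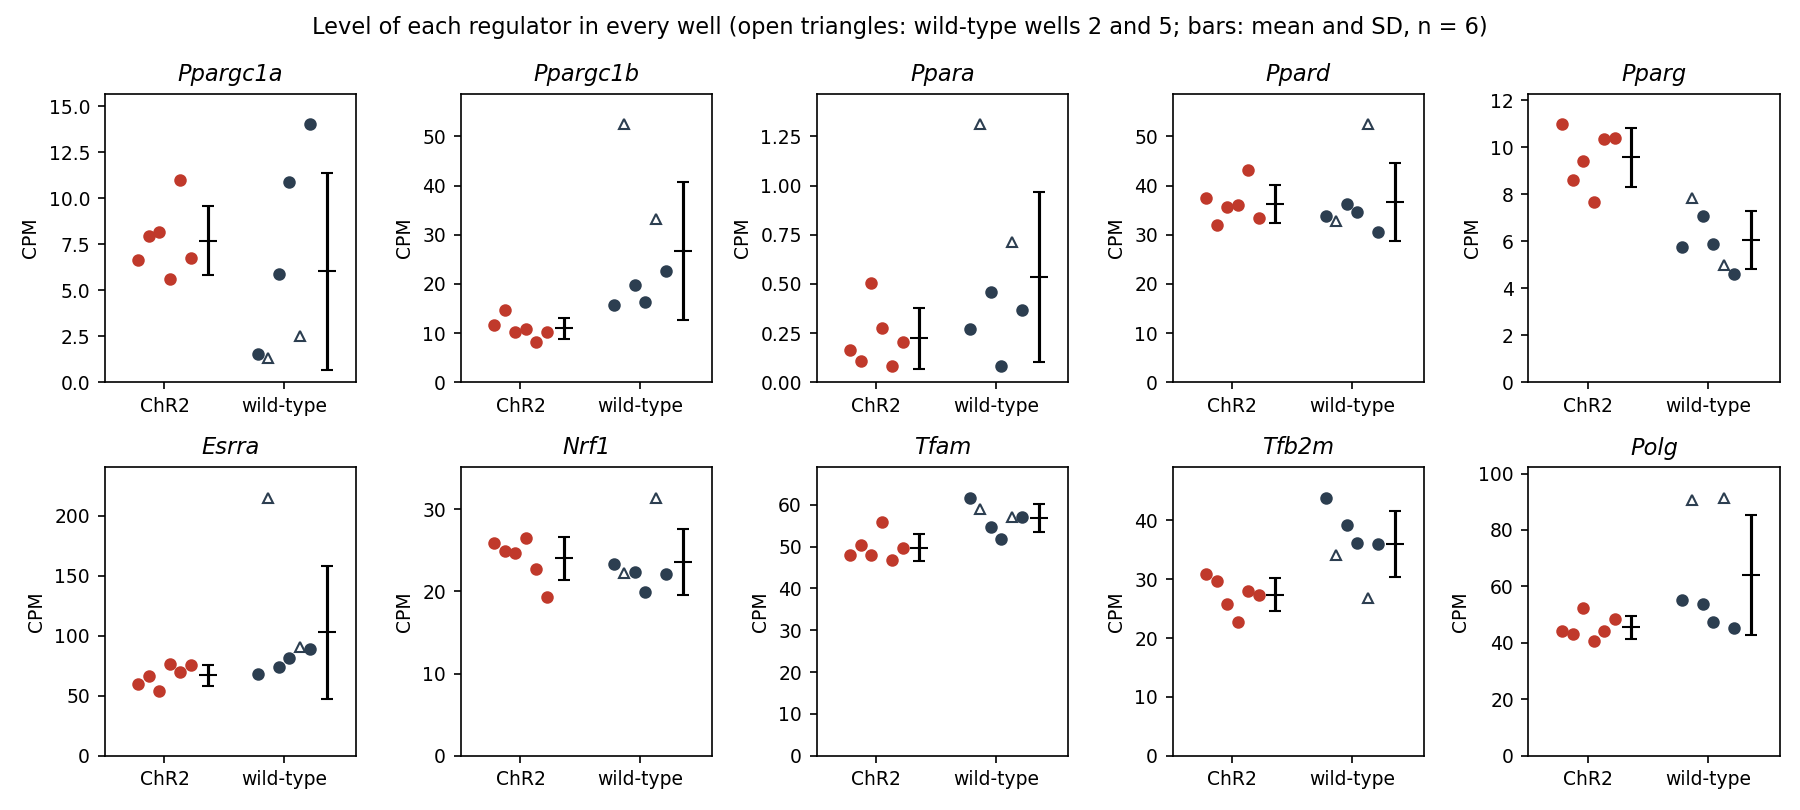
CPM of the 10 regulators in each well of the ChR2 line (red) and the wild-type line (dark), with wild-type wells 2 and 5 as open triangles and the mean and SD of 6 wells beside each group. Ppargc1b is higher in every wild-type well than in any ChR2 well, and Ppargc1a spans 1.31 to 14.0 CPM in the wild-type line.

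The clearest change was in the coactivator Ppargc1b (ENSMUSG00000033871). In ChR2 wells it ran from 8.16 CPM through a median of 10.6 to 14.6 CPM, and in wild-type wells from 15.8 through 21.2 to 52.4 CPM. The lines did not overlap, as for 15.1% of all genes tested (8.57% with ChR2 higher and 6.52% with ChR2 lower), and it was the only one of the 9 regulators of which this held. Wild-type wells 2 and 5 were the highest, at 52.4 and 33.2 CPM, and the other 4 lay between 15.8 and 22.5 CPM. Means were 10.9 ± 2.14 against 26.7 ± 14.1 CPM (SD, n = 6 each), a log2 fold change of -1.14 (SE 0.26, adjusted p = 0.00486). Without wild-type wells 2 and 5 the change was -0.75 (SE 0.16, adjusted p = 0.00242), a fitted 1.69-fold higher in the wild-type line.

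Ppargc1a (ENSMUSG00000029167), the coactivator best known from exercised muscle, had similar means in the lines and very different spreads. ChR2 wells ran from 5.63 through 7.33 to 10.99 CPM. Wild-type wells 1 to 6 stood at 1.53, 1.31, 5.90, 10.9, 2.50 and 14.0 CPM, so that well 4 passed 5 of the 6 ChR2 wells and well 6 all of them, while wells 1, 2 and 5 lay below every ChR2 well. The count was 17 in well 1, a deep library, and 191 in well 6, whereas well 2 held 1 count, under its floor. The SD was 5.33 CPM around a mean of 6.02 CPM in the wild-type line and 1.87 around 7.68 CPM in the ChR2 line. The log2 fold change was 0.15 (SE 0.42, 95% interval -0.75 to 1.06, adjusted p = 0.821). Without the pair of wells it was -0.07 (interval -1.05 to 0.92, adjusted p = 0.926), and both intervals are wide enough to hold a fall or a rise.

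The bases before the RefSeq start of Ppargc1a are shown because its levels were spread widely over the wild-type wells. The stretch lies on the minus strand of GRCm38.p6 at chr5:51567727-51567975, from base -250 to base -2, and its capitals mark the half-site TGACG of the cyclic AMP response element, read on the opposite strand.
Ppargc1a: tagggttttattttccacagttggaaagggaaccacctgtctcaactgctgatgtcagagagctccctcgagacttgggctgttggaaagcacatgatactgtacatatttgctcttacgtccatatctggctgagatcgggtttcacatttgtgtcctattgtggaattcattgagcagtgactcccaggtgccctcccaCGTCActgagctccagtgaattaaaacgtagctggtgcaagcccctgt
TGACG on either strand is found in 20.8% of 32841 RefSeq promoter windows of 300 bases, each running from 250 bases before a start to 50 after it. Among the regulators it was found in 4 of 12 windows, those of Ppargc1a, Polg, Ppara and Ppard. A match of letters is a description and not a site of binding.

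Perm1 and Esrrg, muscle genes of the same axis, shared some high and low wells with Ppargc1a. Perm1 encodes a muscle protein induced by PGC-1 and ERR factors, and Esrrg the ERR receptor of oxidative muscle. In wild-type wells 1 to 6 Perm1 stood at 0.990, 1.31, 1.47, 3.57, 0.357 and 5.13 CPM and Esrrg at 0, 0, 0.369, 1.25, 0 and 1.32 CPM. Both were highest in wells 6 and 4, as Ppargc1a was. Wild-type wells 2 and 5 held under 3 counts of either gene, and well 1 held none of Esrrg. In ChR2 wells 1 to 6 Perm1 stood at 7.51, 5.07, 6.92, 4.81, 12.04 and 10.1 CPM, and Esrrg at 2.34, 1.98, 1.89, 1.24, 3.31 and 2.55 CPM. All 3 genes were highest in ChR2 well 5 and lowest in ChR2 well 4, but the wells between did not keep one order. Well 6 came next for Perm1 and Esrrg, and well 3 for Ppargc1a. ChR2 well 4 was the shallowest ChR2 library, with the highest 7SL share of its line (0.0341% of counts). Pparg, Tfb2m and Polg were also lowest there among ChR2 wells (7.69, 22.8 and 40.7 CPM). Esrra, Nrf1 and Tfam were highest there (76.5, 26.5 and 55.9 CPM). The part of that library in the shared low well was not tested.

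Perm1 rose in the ChR2 line while Ppargc1a did not pass the test. For Perm1 the log2 fold change was 1.64 (SE 0.42, adjusted p = 0.00967), or 1.47 (adjusted p = 0.0194) without wild-type wells 2 and 5. Whether this fold differs from that of Ppargc1a was not tested. Esrrg met the filter on low counts through the ChR2 wells alone, 3 of the 6 wild-type wells being at 0, so its levels above are a description and no fold is given. Wild-type well 6 held more Ppargc1a than any ChR2 well and less Perm1 than 4 of the 6.

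**Figure D2:**
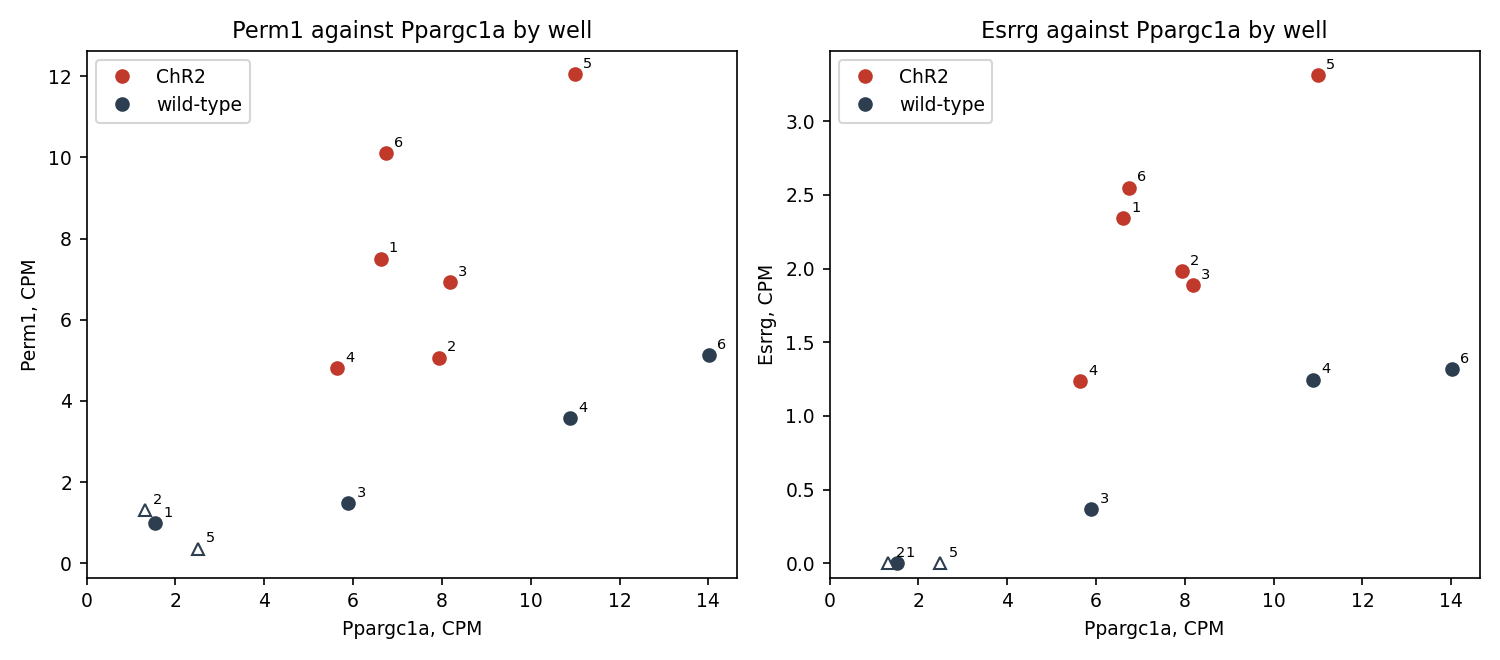
CPM of Perm1 (left) and Esrrg (right) against CPM of Ppargc1a, 1 point per well with its number, for the ChR2 line (red) and the wild-type line (dark; wells 2 and 5 as open triangles). ChR2 well 5 and wild-type well 6 are the highest of their line for all 3 genes.

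Of the PPAR receptors, only Pparg passed the test, and Ppara was too low for it. Pparg (ENSMUSG00000000440), the receptor that drives fat cell formation, ran from 7.69 through 9.89 to 10.98 CPM in ChR2 wells and from 4.62 through 5.83 to 7.86 CPM in wild-type wells. The lines overlapped only through wild-type well 2, whose 7.86 CPM rest on 6 counts. The mean was 9.57 ± 1.25 CPM in ChR2 wells and 6.04 ± 1.24 CPM in the others (SD, n = 6 each). Its fitted log2 fold change was 0.72 (SE 0.16, adjusted p = 0.00526), or 1.64-fold in the fit. Without wild-type wells 2 and 5 the value was 0.74 (SE 0.16, adjusted p = 0.00302). RefSeq gives Pparg 3 starts in its promoter table, and a count per gene does not tell them apart.

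Ppard (ENSMUSG00000002250), the PPAR found in most tissues and abundant in muscle, did not pass. It ran from 32.1 through 35.9 to 43.1 CPM in ChR2 wells and from 30.6 through 34.2 to 52.5 CPM in wild-type wells, where well 5 was alone at the top and the other 5 stood at 36.3 CPM or less. Its log2 fold change was -0.01 (SE 0.13, 95% interval -0.30 to 0.27, adjusted p = 0.964) over 12 libraries and 0.12 (interval -0.08 to 0.33) over 10. Ppara (ENSMUSG00000022383), the fasting receptor of liver and oxidative muscle, had between 1 and 5 counts in every library and was not tested. Its mean was 0.222 ± 0.154 CPM for the ChR2 line and 0.534 ± 0.434 CPM for the other, and no fold is given at this depth.

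Defining fat cell markers were near 0. Of 14 adipocyte markers 4 were tested and 0 called by edgeR over either set of libraries. Of these, 1 of the 4, Dgat2, had an unadjusted p under 0.05 over 12 libraries (0.0363), the DESeq2 Wald test called 0, limma voom with quality weights called 1 lower, and edgeR called 1 higher without wild-type well 4. The other 10 stayed under 1 CPM on average in both lines, Ucp1 and Prdm16 at 0 and Adipoq, Plin1, Lep and Fabp4 among the rest. The summed list lay between 90.2 and 140 CPM for the ChR2 line and between 68.9 and 122 CPM for the other, most of it Gpd1, which muscle also expresses. Fibroblast markers were called higher in ChR2 wells for 7 of 10 tested, beside 14% of all genes. The number was also 7 without wild-type wells 2 and 5, beside 18.9%. It was 4 when any 1 ChR2 well, wild-type well 3 or wild-type well 5 was left out. In those fits between 1497 of 13287 and 1974 of 13297 genes were called higher. The summed levels of these markers were 4144 to 4922 CPM against 1180 to 4479 CPM. Without wild-type wells 2 and 5 the wild-type range was 1180 to 3969 CPM, which does not overlap the ChR2 line, as for 13.7% of all single genes with ChR2 higher. The part of the fibroblast markers in the rise of Pparg was not tested. In bulk samples fewer cells of a type and less RNA per cell cannot be told apart.

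**Figure D3:**
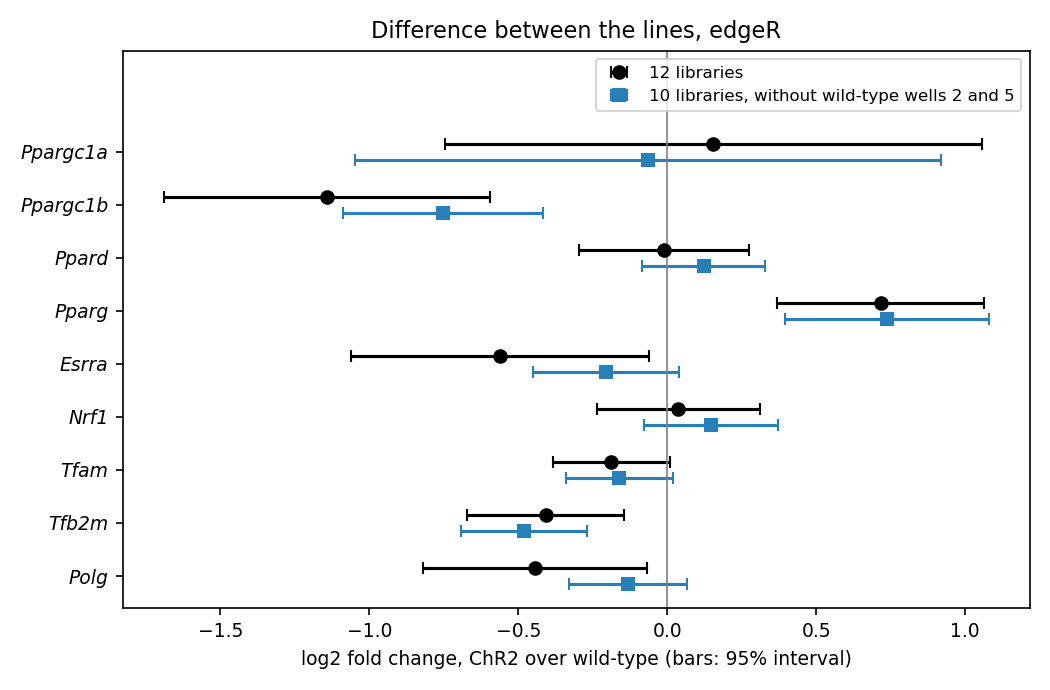
Log2 fold change, ChR2 over wild-type, of the 9 tested regulators with 95% intervals from edgeR, over 12 libraries (black) and over 10 without wild-type wells 2 and 5 (blue). The intervals of Ppargc1b, Pparg and Tfb2m lie on 1 side of 0 in both fits, and those of Esrra and Polg only over 12 libraries, where neither passed the adjusted test.

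The DNA-binding partners Esrra and Nrf1 did not pass. Esrra (ENSMUSG00000024955) encodes ERRalpha, through which PGC-1 proteins act on respiratory genes. It ran from 53.9 through 67.8 to 76.5 CPM in ChR2 wells and from 68.0 through 85.1 to 215 CPM in wild-type wells, the 215 CPM being well 2 alone. For Esrra the log2 fold change was -0.56 (SE 0.24, adjusted p = 0.0863) over 12 libraries and -0.21 (SE 0.11, adjusted p = 0.174) over 10. Esrra shares exon bases with Trmt112 on the opposite strand, so reads of the pair may be mixed. Nrf1 (ENSMUSG00000058440), which is not the Nfe2l1 gene that has carried the same nickname, had a log2 fold change of 0.04 (SE 0.13, 95% interval -0.24 to 0.31, adjusted p = 0.864), with 24.0 ± 2.61 against 23.6 ± 3.997 CPM. Without the pair of wells it was 0.15 (interval -0.08 to 0.37).

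Of the 3 factors that act inside the mitochondrion, Tfb2m fell. Tfb2m (ENSMUSG00000026492) opens the promoters of mitochondrial DNA for the polymerase. It ran from 22.8 through 27.7 to 30.8 CPM in ChR2 wells and from 26.8 through 36.1 to 43.8 CPM in wild-type wells. The lines overlapped through wild-type well 5, the lowest of its line, and not among the other 10 wells. For Tfb2m the log2 fold change was -0.41 (SE 0.12, adjusted p = 0.0241). Without wild-type wells 2 and 5 it was -0.48 (SE 0.10, adjusted p = 0.0022), a fitted 1.40-fold higher in the wild-type line. Over 12 libraries Tfb2m no longer passed when ChR2 well 3, 4 or 5, or else wild-type well 1 or 3, was left out alone (adjusted p up to 0.0604).

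Tfam (ENSMUSG00000003923), which packages mitochondrial DNA, ran from 46.7 through 48.9 to 55.9 CPM in ChR2 wells and from 51.7 through 57.0 to 61.7 CPM in wild-type wells. Only ChR2 well 4 reached into the wild-type range. Its log2 fold change was -0.19 (SE 0.09, 95% interval -0.39 to 0.01, adjusted p = 0.14), and -0.16 (adjusted p = 0.148) over 10 libraries. Polg (ENSMUSG00000039176), the catalytic subunit of the polymerase that copies mitochondrial DNA, stood at 45.5 ± 4.18 against 63.9 ± 21.2 CPM, with wild-type wells 2 and 5 at 90.4 and 91.3 CPM and the other 4 between 45.4 and 55.1 CPM. Its log2 fold change of -0.45 (adjusted p = 0.072) became -0.13 (adjusted p = 0.283) without that pair, and passed without wild-type well 4 or 6 alone (adjusted p = 0.0414 and 0.0322). Polg shares exon bases with Fanci on the opposite strand.

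Short windows of 3 regulators are shown because they hold the letters GCATGCGC of the NRF1 motif, and a further one because Tfb2m, which fell, carries CGGAAG, the core bound by ETS factors such as GABPA, in tandem. Capitals mark these letters, positions count from the RefSeq start as base 1, and all are from GRCm38.p6, in the order of base 3 to 32 and -40 to -11 of Tfb2m (minus strand, chr1:179546245-179546274 and chr1:179546287-179546316), -45 to -16 of Esrra (minus strand, chr19:6921824-6921853) and -41 to -12 of Ppara (plus strand, chr15:85735735-85735764).
Tfb2m, NRF1 letters: ctaggtcgttcGCATGCGCcattcgtaatg
Tfb2m, ETS letters: gagcctaggCGGAAGCGGAAGcgagtgagc
Esrra: ccccctgttttGCATGCGCaggccggcccc
Ppara: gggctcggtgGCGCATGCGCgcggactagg
GCATGCGC on either strand was in 3 of the 12 windows of these genes and in 2.71% of all windows. In Ppara 2 matches on opposite strands overlap and form the full palindrome of the motif, in capitals above, which 0.971% of windows hold. CGGAAG was in 6 of the 12 windows (Pparg in 2, and Tfb2m, Polg, Tfam and Ppard in 1 each) and in 16.9% of all windows. The ERR letters AAGGTCA and the E-box CACGTG were in 0 of the 12 windows of these genes, beside 4.72% and 7.15% of all windows. Of the genes that hold GCATGCGC, Tfb2m fell, Esrra was lower but not called (-0.56 over 12 libraries, -0.21 over 10), and Ppara was not tested. With only Tfb2m called, these genes cannot show whether they share a direction. Of those that hold CGGAAG, Tfb2m fell, Pparg rose, and Polg, Tfam and Ppard were not called.

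Levels of different genes were compared as TPM. In ChR2 wells the order of means was Tfam (58.9 ± 15.7 TPM), Esrra (42.8 ± 2.37), Polg (18.7 ± 7.55), Tfb2m (16.8 ± 1.76), Ppard (16.5 ± 3.49), Nrf1 (13.3 ± 1.98), Pparg (6.74 ± 1.44), Ppargc1b (3.997 ± 0.863), Ppargc1a (1.99 ± 0.810) and Ppara (0.143 ± 0.124), each n = 6. Polg, Tfb2m and Ppard were neighbours whose order changed between wells: Polg was above Tfb2m in 4 of 6, and Tfb2m above Ppard in 4 of 6. In wild-type wells 1, 3, 4 and 6, Tfam (59.6 ± 12.4 TPM) and Esrra (53.8 ± 3.08) came first, each above the other in 2 of 4 wells, and Tfb2m, Polg, Ppard and Nrf1 followed in that order in all 4.

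**Figure D4:**
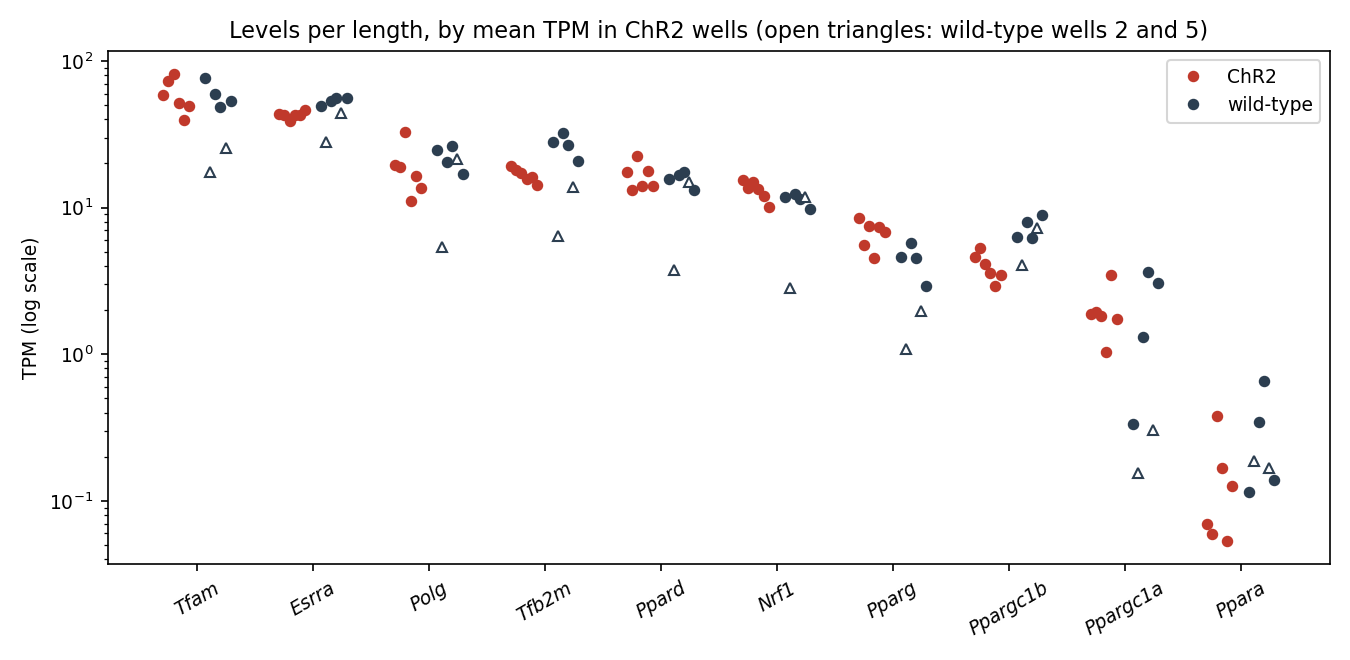
TPM of the 10 regulators on a log scale, ordered by their mean in ChR2 wells, with ChR2 wells in red and wild-type wells in dark (wells 2 and 5 as open triangles). Pparg lies above Ppargc1b in the ChR2 line and below it in the wild-type line.

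The order of Pparg and Ppargc1b turned between the lines. Pparg was above Ppargc1b in 6 of 6 ChR2 wells and below it in 6 of 6 wild-type wells. The ratio of their TPM in the same well, which does not depend on how libraries are scaled, ran from 1.05 through a median of 1.83 to 2.55 in ChR2 wells. In wild-type wells it ran from 0.268 through 0.524 to 0.726, with wells 2 and 5 at 0.268 and 0.269 and the other 4 between 0.329 and 0.726. This pair was chosen after its values were seen, and the ratio was not tested.

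Genes upstream of the regulators moved in both directions. Of 36 tested signalling proteins and transcription factors, 3 were called higher and 7 lower, with a median log2 fold change of -0.12. Of all genes 14% were called higher and 14.1% lower. The 3 include Esrrg, which met the filter through the ChR2 wells alone, so its call does not count as support for a rise. Over the 10 libraries the list held 5 higher, Esrrg again among them, and 9 lower, where 18.9% and 16.3% of all genes were called. Sirt1, the deacetylase that acts on PGC-1alpha, fell by 0.64 on the log2 scale (adjusted p = 0.00929; 12.7 to 14.7 CPM against 15.03 to 29.9 CPM by well, without overlap). Prkaa2, the muscle AMPK catalytic subunit, fell by 0.50 (adjusted p = 0.0175), and Mef2d, a factor at the Ppargc1a promoter, by 0.59 (adjusted p = 0.00451). Myc rose by 0.66 (adjusted p = 0.000919; 48.8 ± 4.43 against 31.2 ± 3.95 CPM). Over the 10 libraries these values were -0.66 for Sirt1, -0.59 for Prkaa2, -0.50 for Mef2d and 0.72 for Myc, all called. Like Sirt1, Mef2d and the kinase gene Mapk14 were lower in ChR2 wells without overlap over 12 libraries, and Myc was higher. This held for 6.52% of all genes with ChR2 lower and 8.57% with ChR2 higher.

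Calls of other AMPK subunits depended on single wells. The log2 fold change was 0.84 for Prkag2 (adjusted p = 0.031) and -0.70 for Prkag3 (adjusted p = 0.0414). Prkag2 failed the test when ChR2 well 3, 4, 5 or 6, or else wild-type well 1 or 3, was left out alone (adjusted p up to 0.0741). Prkag3 failed it when any ChR2 well but well 2, or else wild-type well 2, 3 or 6, was left out alone (up to 0.0953). In the 10-library fit they stood at 0.74 and -0.83 (adjusted p = 0.0444 and 0.0185). Prkab1, Prkab2 and Prkag1 were not called over 12 libraries (-0.21, 0.16 and -0.19) or over 10 (-0.19, 0.04 and -0.14). Prkaa1 was not called over 12 libraries (-0.38, adjusted p = 0.0826) and was over 10 (-0.42, adjusted p = 0.0176), or without wild-type well 2 or 6 alone (down to 0.0155). Gabpa and Yy1, which share targets with Nrf1, had log2 fold changes of 0.00 and 0.01 (adjusted p = 0.999 and 0.944), or -0.06 and -0.05 without the pair of wells. The number called in this list fell from 10 to 4, 5 and 5 without ChR2 well 5, 4 or 6, and to 6 without wild-type well 3. Calls over all genes fell too, from 3701 of 13168 to 2822 of 13253, 2981 of 13313, 2926 of 13296 and 2999 of 13287.

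Among partners and coregulators of these receptors 1 of 19 rose and 3 fell (median -0.18), a share below that of all genes (28.1%), and the same numbers held without wild-type wells 2 and 5 (35.2% of all genes). The riser was Perm1. Rxra, the obligate partner of PPAR receptors on DNA, stood at 38.9 ± 5.43 against 64.5 ± 17.7 CPM and fell by 0.69 (adjusted p = 0.00693), or by 0.45 without the pair of wells. Nrip1, a corepressor of oxidative genes, fell by 0.61 (adjusted p = 0.00169) and the acetyltransferase Ep300 by 0.53 (adjusted p = 0.0161), or by 0.55 and 0.37 without the pair of wells, both called. Pprc1, the third member of the PGC-1 family, stood at -0.37 on the same scale (adjusted p = 0.127), which passed only without wild-type well 6 among the libraries left out in turn (adjusted p = 0.0458) and was -0.14 without the pair.

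PPAR target genes of fatty acid use moved in both directions. Of 31 tested, 3 rose and 9 fell (median -0.09), beside 14% and 14.1% of all genes. Over 10 libraries it was 3 and 8, beside 18.9% and 16.3%. The 3 that rose and the 3 with the largest falls are described here and below. Others that fell included Acadl (-0.63, adjusted p = 0.000395) and Slc25a20 (-0.67, adjusted p = 0.00227). Both were lower in ChR2 wells without overlap, as for 6.52% of all genes. They stood at -0.57 and -0.62 over the 10 libraries, both called. Hilpda, a lipid droplet protein, stood at 49.3 ± 8.72 against 26.6 ± 8.57 CPM (log2 fold change 0.83, adjusted p = 0.00485), and the mitochondrial thioesterase Acot2 rose by 0.58 (adjusted p = 0.0196). Its cytosolic relative Acot1 was at 2.36 ± 0.72 against 5.25 ± 1.17 CPM (-1.07, adjusted p = 0.00498). These thioesterases are close paralogs, so how reads were divided between them is uncertain. Pdk4, which blocks glucose oxidation and is a classic PPAR target, fell by 0.67 (adjusted p = 0.0152). Over the 10 libraries Hilpda was at 0.78, Acot2 at 0.60, Acot1 at -0.94 and Pdk4 at -0.74, all called.

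The log2 fold change of the lipoprotein lipase Lpl was 0.68 (adjusted p = 0.026), and the gene failed the test when ChR2 well 3, 5 or 6, or else wild-type well 1 or 3, was left out alone (up to 0.0608). That of Ucp3, an uncoupling protein of muscle, was -1.002 (adjusted p = 0.0281), and Ucp3 failed when any ChR2 well but well 2, or else wild-type well 3 or 6, was left out (up to 0.0657). Over the 10 libraries Lpl was at 0.54 (adjusted p = 0.0489) and Ucp3 at -1.11 (adjusted p = 0.0122). Summed myotube markers lay between 13394 and 16328 CPM for the ChR2 line and between 12228 and 30961 CPM for the other, where the top value was well 2 and wells 1, 3, 4 and 6 reached 20772 CPM. Of 12 myotube markers 3 were called lower, beside 14.1% of all genes, and 5 without the pair, beside 16.3%. It was also 5 without wild-type well 5 alone, in DESeq2 and in voom. Over all genes those fits called 1776 of 13297, 2117 of 13168 and 2631 of 13168 lower. It was 2 when any 1 ChR2 well, wild-type well 3 or wild-type well 6 was left out. In those fits between 1284 of 13253 and 2127 of 13260 genes were called lower. Voom and the fit without wild-type well 6 also called 1 higher. The part of the myotube markers in the fall of muscle genes such as Ucp3 and Pdk4 was not tested.

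The machinery that works beside Tfam, Tfb2m and Polg also moved both ways: of 29 tested, 3 rose and 4 fell (median -0.15), a share below the 28.1% of all genes. Polrmt, the mitochondrial RNA polymerase that Tfb2m assists, stood at 29.9 ± 2.38 against 54.7 ± 19.5 CPM and fell by 0.80 (adjusted p = 0.00486). The replicative helicase Twnk, at 24.4 ± 1.05 against 43.8 ± 12.6 CPM, also fell by 0.80 (adjusted p = 0.00271), and the tRNA-processing nuclease Elac2 by 0.53 (adjusted p = 0.00303). None of these 3 genes overlapped between the lines, as for 6.52% of all genes with ChR2 lower. Without wild-type wells 2 and 5, where Polrmt and Twnk were highest, the falls were 0.49, 0.56 and 0.44 (adjusted p = 0.00114, 0.00177 and 0.00321), and the list held 3 higher and 8 lower, beside 35.2% of all genes called.

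Genes of the same machinery that rose included Lonp1, the matrix protease that degrades free TFAM, at 244 ± 22.5 against 141 ± 27.0 CPM (log2 fold change 0.80, adjusted p = 0.00073), and the primase Primpol (0.98, adjusted p = 0.000972). For Dguok, a deoxynucleoside kinase, the log2 fold change was 0.35 (adjusted p = 0.0398), and leaving out any 1 of 9 libraries, all but ChR2 well 6 and wild-type wells 2 and 4, ended its call (up to 0.0828). In the 10-library fit Lonp1 was at 0.92, Primpol at 0.91 and Dguok at 0.31, all called. Tfb1m, the methyltransferase related to Tfb2m, and Polg2, the accessory subunit of the polymerase, were not called (0.25 and -0.39, adjusted p = 0.465 and 0.314), and stood at 0.05 and -0.08 without the pair of wells.

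Of 22 markers of mitochondrial mass 2 were called, beside 28.1% of all genes: 1 rose, the matrix chaperone Hspa9 (801 ± 80.9 against 527 ± 92.2 CPM, log2 fold change 0.60, adjusted p = 0.00686), and 1 fell, the import receptor Tomm70a (-0.45, adjusted p = 0.00977). The median was 0.00. In the 10 libraries Hspa9 was at 0.54 and Tomm70a at -0.50, both called. The list then held 2 higher and 1 lower, beside 18.9% and 16.3% of all genes. Of 12 fusion and fission genes 3 fell and 0 rose (median -0.18), beside 14.1% of all genes called lower: Mief2 (-0.9996, adjusted p = 0.00483) and Mief1 (-0.67, adjusted p = 0.0114), which recruit the fission protein Drp1, and the mitofusin Mfn1 (-0.28, adjusted p = 0.0416). Without the pair of wells 5 fell, beside 16.3% of all genes, Mief2 by 0.64, Mief1 by 0.35 and Mfn1 by 0.28, while Mfn1, over 12 libraries, failed the test when any ChR2 well but well 3, or else wild-type well 1, 3 or 4, was left out alone (adjusted p up to 0.0977).

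Messages encoded by mitochondrial DNA itself, the end product of Tfam, Tfb2m and Polrmt, were called for 0 of 13 genes by edgeR over 12 and over 10 libraries, and 0 had an unadjusted p under 0.05. DESeq2 and limma voom also called 0. Their share of all counts ran from 0.670% to 2.48% in ChR2 wells, from 1.28% to 4.02% in wild-type wells 1, 3, 4 and 6, and was 0.0842% and 0.211% in wells 2 and 5. The most abundant, mt-Co1 and mt-Co2, had log2 fold changes of -0.08 (SE 0.64) and 0.45 (SE 0.59), and of -0.60 (SE 0.39) and -0.06 (SE 0.31) without wild-type wells 2 and 5. The median of the list was 0.13 over 12 libraries and -0.42 over 10.

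**Figure D5:**
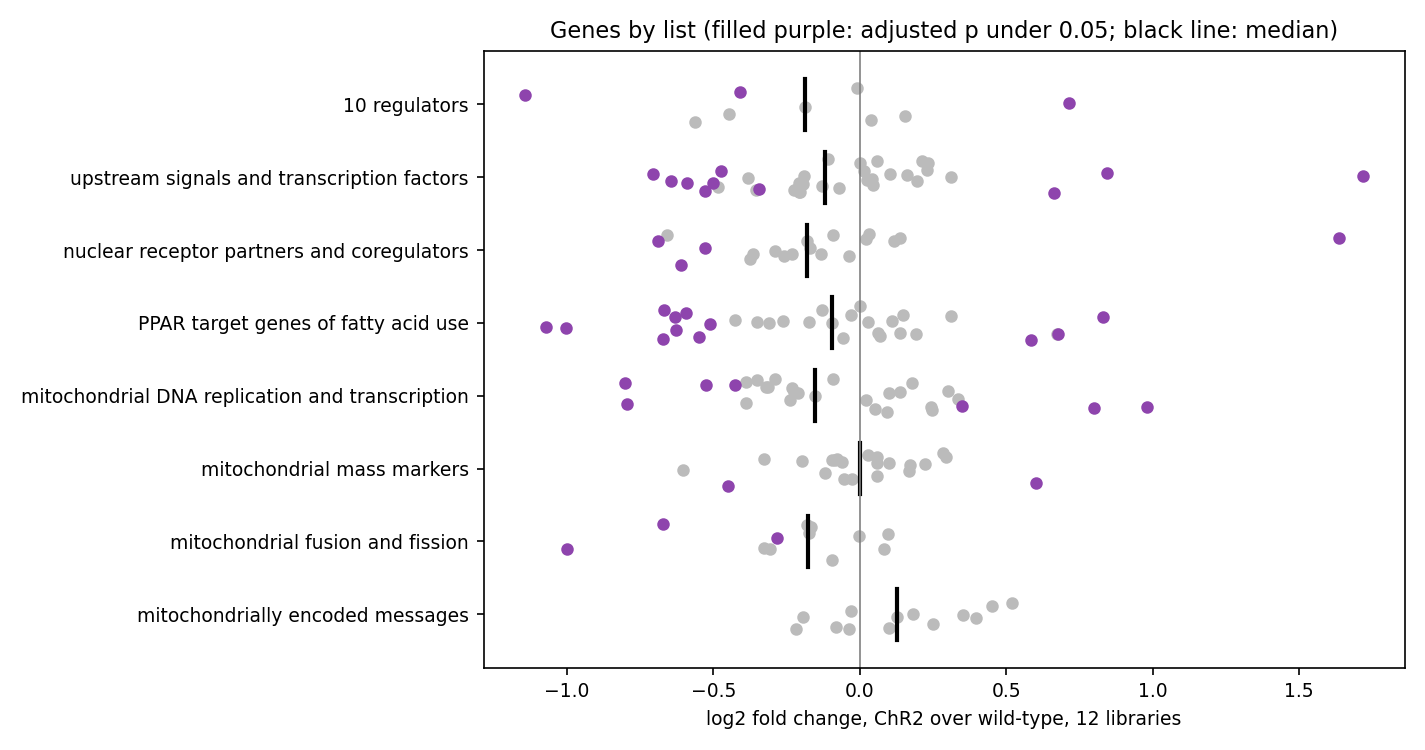
Log2 fold change over 12 libraries of each tested gene of the 10 regulators and of 7 lists of related genes, with called genes in purple, other genes in grey and the median of each list as a black line. Called genes lie on both sides of 0 in every list except fusion and fission, where 3 fell, and the mitochondrially encoded messages, where 0 were called.

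The genes most like each regulator were named by Pearson's correlation of log2 CPM over the 10 libraries, as a description, since these points share their lines and their scaling. Those named were the highest found in a search over genes with an established symbol and at least 5 CPM on average. Ppargc1a was closest to Tnik (r = 0.97) and to Ky (0.97), a muscle protease, at 0.85 and 0.68 over all 12. Pparg was closest to Tdrd7 (0.97) and Ppme1 (0.96), at 0.75 and 0.69 over 12. Tfam was closest to Prpf38a (0.97) and Nup35 (0.97), of splicing and of the nuclear pore, at 0.86 and 0.76 over 12. Tfb2m was closest to Rfx7 (0.98) and Usp19 (0.98), but at 0.63 and 0.42 over 12 libraries. Polg was closest to Tm9sf3 (0.98) and Zfp788 (0.95), but at -0.55 and -0.36 over 12. Ppargc1b was closest to Hdhd5 (0.98) and Nt5c2 (0.96), at 0.91 and 0.14 over 12. For Esrra they were Tmem14c (0.97) and Mdp1 (0.96), at 0.41 and 0.50 over 12. For Ppard they were Tmem184b (0.87) and Vps26b (0.86), at 0.58 and 0.43, and for Nrf1 Thrap3 (0.89) and Hp1bp3 (0.89), at 0.24 and 0.60. Between the regulators, the highest value over 10 libraries was that of Ppargc1b with Tfb2m (0.76) and the lowest that of Ppargc1b with Pparg (-0.84), and within the 6 ChR2 wells these were 0.28 and -0.39. Ppargc1a and Ppargc1b had a value of -0.02 over 10 libraries, -0.60 over 12 and -0.45 within the ChR2 wells.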

How the data were processed

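RNA of 6 ChR2 and 6 wild-type wells was sequenced. The labels' protocols describe poly(A) selection, with ribodepletion for low-input samples that they do not name. The authors deposited 1 table of estimated counts and TPM per gene, per the file headers. The submitters' processing notes name STAR, Salmon, BWA 0.7.12-r1039 and bedtools 2.25.0 with the builds mm10, hg19 and GRCm39. The names of both tables carry the word salmon. The version, build and use of strand behind them are not given in the sources used here. Estimated counts as deposited were rounded to whole numbers. Columns of other samples numbered 0.

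Genes passing edgeR's filterByExpr (minimum count 10) were scaled by TMM and fitted with the line as the only term by edgeR 4.0.16's quasi-likelihood test (R 4.3.3), with Benjamini-Hochberg adjustment over all genes tested and a threshold of 0.05. Correlations used log2 CPM with a prior count of 2. TPM as the authors deposited them served for levels between genes and, on the log2 scale, for limma 3.58.1. Libraries of a line differed by more than sampling noise in every pair. The 10 regulators were taken by symbol. From each related list up to 3 called genes with the greatest rise and 3 with the greatest fall were named, at 1 CPM or more in the higher line, the 2 most abundant where none was called, and set genes such as Sirt1 and Polrmt. The members, lists and tests were chosen with earlier results of these data known. Promoter sequences are RefSeq's (GRCm38.p6), matched by symbol for 9 of 10 genes. Ppargc1b is named only. Gene overlaps are from GENCODE.

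Alternatives were other scalings, filters, tools (DESeq2 1.42.0 and limma voom), TPM, a replicate block and each library left out. Without wild-type wells 2 and 5 the TPM fit was added after seeing the data.

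Same-numbered wells of the lines had residual correlations from -0.14 to 0.10, so the numbers were not used as pairs. Depth was 1061068 to 13628569 estimated counts a library.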

Additional observations from a re-analysis of the deposited data

Results flagged for a closer look

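Among 46 named genes, each examined in both lines (92 groups of 6 wells), 9 groups held 1 well far from the other 5 by Dixon's gap test. Chance alone marks about 1 in 20 such groups. Of the regulators, 3 were marked: wild-type well 5 stood alone for Ppard (52.5 CPM) and Nrf1 (31.4 CPM), and wild-type well 2 for Esrra (215 CPM). Wild-type well 5 was also the high one for Pprc1 (71.4 CPM) and Polg2 (12.8 CPM), and wild-type well 2 for Mief2 (157 CPM). In ChR2 wells the marked values were Ep300 in well 2 (107 CPM, highest), Tfb1m in well 4 (14.0 CPM, highest) and Mief2 in well 3 (30.1 CPM, lowest). Wild-type wells 2 and 5 therefore held 2 and 4 of the 9 values; the part of their depth and 7SL RNA in these was not tested.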

How the results depend on the processing

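In edgeR, DESeq2 and voom fits with other scalings or filters, or without wild-type wells 2 and 5, Ppargc1b and Pparg kept their direction and call; Tfb2m lost its call with no filter (-0.40, adjusted p = 0.0675). Uncalled genes near 0 changed sign: Ppargc1a without that pair (-0.07), and Ppard with DESeq2 size factors or no filter (0.00), upper-quartile scaling or voom (0.05), DESeq2 (0.01) and without the pair (0.12). Without the pair Gabpa was at -0.06, Yy1 at -0.05 and mt-Co2 at -0.06. Gabpa was at -0.00 in DESeq2 and -0.11 in voom, Yy1 at -0.07 and mt-Co1 at 0.50 in voom. Of 29 tested genes of the mitochondrial DNA list, 11 were called without the pair, where 4749 of all 13484 genes were called. In voom it was 12, where 5412 of all 13168 genes were called. Of 12 fusion and fission genes 5 were called without the pair.

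The TPM fits over 12 libraries, with pseudocounts of 1 and 0.1 and with 1 unfiltered, shifted the median of all genes to 0.35, 0.43 and 0.08. Ppargc1b was at -0.63, -0.74 and -0.63, Pparg at 0.88, 1.10 and 0.88, and Tfb2m at -0.17 in each, all uncalled. Ppard was at 0.37, 0.41 and 0.37, Tfam at 0.44, 0.45 and 0.44, Polg at 0.02, 0.03 and 0.02, Prkaa1 at 0.09, 0.13 and 0.09, Mfn1 at 0.09, 0.10 and 0.09, and mt-Co1 at 1.09 in each. With 0.1, Pprc1 was at 0.02 and Tomm70a at 0.01. Calls were 0 of the regulators in each, 0, 0 and 1 upstream, 1, 1 and 0 coregulators, 1, 0 and 0 of the mitochondrial DNA list, and 0 PPAR targets, mass markers and fusion and fission genes. Over all genes they were 521 of 12989, 274 of 12989 and 521 of 26704. Over 10 libraries, a fit chosen after seeing the data, Pparg was at 0.51, Esrra at -0.32 (now called), Ppard at 0.05, Gabpa at -0.19, Yy1 at -0.18, Tfb1m at -0.02 and mt-Co2 at -0.13. It called 4 of 22 mass markers, beside 3226 of 12989 genes. The 7SL share of TPM moved with the 12-library fits, and its part was not tested.

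Well numbers were shared by both lines, but same-numbered wells did not deviate together, and 1 of 6 numbers correlated best with its own. With the replicate block, calls over all genes went from 3701 to 2641, Tfb2m was at -0.40 (adjusted p = 0.0688), Ppard at 0.00 and mt-Co1 at 0.46, and 5 upstream genes were called.

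Leaving out 1 library in turn gave ranges of -0.09 to 0.56 for Ppargc1a, -1.25 to -0.93 for Ppargc1b, -0.07 to 0.11 for Ppard, 0.64 to 0.79 for Pparg, -0.66 to -0.25 for Esrra, -0.01 to 0.13 for Nrf1, -0.22 to -0.15 for Tfam, -0.48 to -0.34 for Tfb2m, -0.53 to -0.29 for Polg, -0.03 to 0.06 for Gabpa, -0.03 to 0.07 for Yy1 and -0.32 to 0.34 for mt-Co1. Calls ranged from 2 to 4 among the regulators, 4 to 11 upstream, 4 to 6 among coregulators, 8 to 12 PPAR targets, 5 to 9 in the mitochondrial DNA list, 2 to 3 mass markers, 2 to 4 fusion and fission genes and 0 mitochondrially encoded messages. Over all genes they ranged from 2822 of 13253 to 4115 of 13260 in these fits.

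Depth limits Ppara in every library and Ppargc1a, Perm1 and Esrrg in wild-type wells 2 and 5.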
